A study of Mus musculus with 12 samples.

Results

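The response to SHHN, the secreted amino-terminal fragment of Sonic hedgehog, was measured as the mean of its effects in 2 mouse fibroblast lines. The lines were NIH-3T3, derived from NIH/Swiss embryos, and MLg, derived from the lung of newborn ddY mice. Cells at 85% confluence received 1 µg/ml recombinant SHHN or vehicle for 48 h in medium with 0.5% serum, after growth in 10% serum. The groups were NIH-3T3 with SHHN, NIH-3T3 control, MLg with SHHN and MLg control, with 3 libraries each. All 12 libraries and 4 group means entered the contrast, and 12379 of 24346 genes with values were tested because they reached 0.5 FPKM, a level scaled to transcript length and to library size, in at least 3 libraries. The genes described are those whose SHHN and control libraries did not overlap in either line and whose change had the same sign in both. They numbered 2306 of the 12379 tested genes. Each tissue is represented by 1 cell line, so the mean over 2 lines is not an estimate over fibroblasts in general, and the labels do not say whether the 3 libraries of a group came from separate cultures. The p-values therefore measure the spread between these libraries, which may be technical.

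Hedgehog ligands act by binding the receptor Patched, encoded by Ptch1. Unbound Patched holds the membrane protein Smoothened inactive. Ligand binding releases Smoothened at the primary cilium, and GLI transcription factors then switch from repressors to activators. Gli1, Ptch1 and Hhip are direct GLI targets, so that the pathway raises its own receptor as well as its effector. In developing lung, epithelial Sonic hedgehog signals to the surrounding mesenchyme, and fibroblast lines are a common model of that receiving cell.

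The labelled cell type was checked first. All 8 fibroblast markers had values above 0 in every group, though Thy1 was at or under 0.106 FPKM in every MLg library, and their summed FPKM was 8391 to 10353 in NIH-3T3 SHHN libraries against 13014 to 14352 in NIH-3T3 controls. In MLg the sums were 7792.5 to 9271 with SHHN against 8669 to 9909 in controls. Of the 8, 1 rose and 4 fell in the mean, the rise being that of Thy1 (0.24 ± 0.08, adjusted p = 0.0305) and the largest fall that of Pdgfra, the alpha receptor of platelet-derived growth factor (-1.06 ± 0.11). No epithelial marker was tested, since their sums stayed at or below 0.875 FPKM. Of 8 blood markers 3 were tested and 0 were called. Of 5 smooth muscle markers 2 were tested and 1 fell, and of 6 neural and glial markers 3 were tested and 1 fell. FPKM totals ranged from 470218 to 659862 per library, and 13401 to 14793 genes were above 0. Within groups, libraries correlated at Spearman 0.969 to 0.977 over genes, against 0.928 to 0.968 between groups. NIH-3T3 SHHN replicate 1 lay over 2-fold (of FPKM + 0.5) outside both other libraries of its group for 10 of 117 genes named in the text, against at most 3 for any other library. These were Cdh5, Pgf, Steap4, Wnt5a, Il1rl1, Angptl4, Tagln, Adm, Tek and Wfdc1, and without that library the mean change of all 10 kept its sign and passed. Some further genes were over 2-fold apart only without the added 0.5, among them C3, Gdpd2, Fosl1, Tcf7, Ngfr and Prl2c3. Without that library their mean changes were -2.94, -2.84, -2.07, -0.82, 2.84 and -3.08, in this order.

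The averaged effect called 4474 genes, 36.1% of those tested, at a limma adjusted p under 0.05. Of these, 2319 genes were higher with SHHN (18.7% of tested genes) and 2155 were lower (17.4%). Among the higher genes 914 (39.4%) also passed in each line alone, 693 (29.9%) only in NIH-3T3, 492 (21.2%) only in MLg and 214 (9.23%) in neither. The lower genes divided into 519 (24.1%) past the threshold in both lines, 916 (42.5%) in NIH-3T3 alone, 463 (21.5%) in MLg alone and 247 (11.5%) in neither. The remaining 6 higher and 10 lower genes passed in opposite directions in the lines. Alone, the NIH-3T3 effect called 31.4% of tested genes and the MLg effect 22.8%. A 2-fold or larger mean change was reached by 626 higher genes (27.0%) and by 270 lower genes (12.5%).

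The genes without overlap comprised 1336 that were higher in both lines, 10.8% of tested genes, and 970 that were lower in both, 7.84%. The values that chose them are the values of the contrast itself, so these shares are a description. The averaged test called 1317 of the higher and 954 of the lower genes. The higher set held the larger changes. Its median mean change was 0.86 on the log2(FPKM + 0.5) scale (0.88 in NIH-3T3 and 0.81 in MLg), against -0.62 for the lower set (-0.64 and -0.52) and -0.012 for all tested genes. At least 4-fold in both lines changed 110 of the higher genes (8.23%) and 11 of the lower genes (1.13%). Of these sets 50 higher and 41 lower genes are predicted genes without a name and were only counted. The smallest mean changes that met the rule were 0.146 for Tollip, an adaptor of Toll-like receptor signalling, and -0.116 for Pgm1, a phosphoglucomutase.

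**Figure D1:**
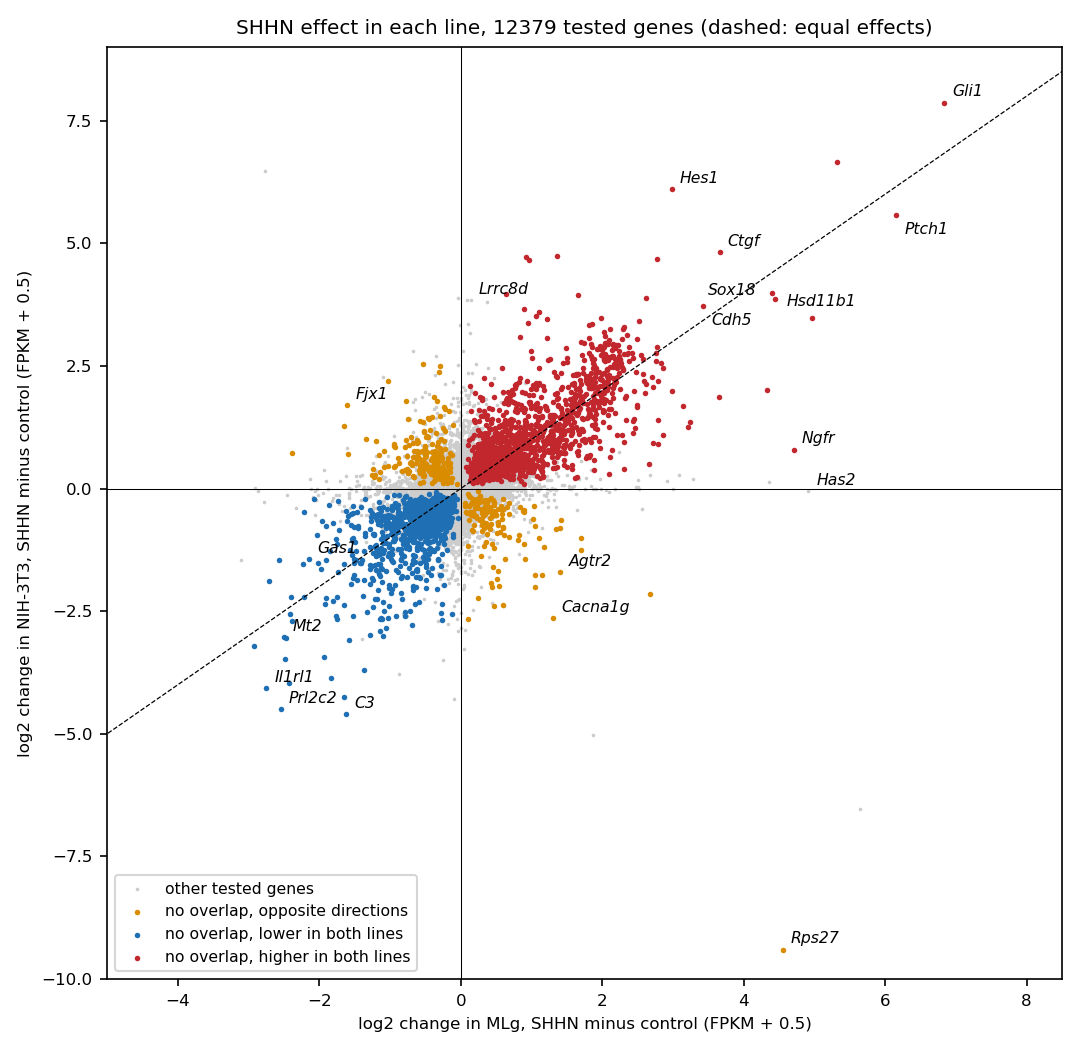
Log2 change with SHHN minus control in MLg (x axis) and NIH-3T3 (y axis) for each of 12379 tested genes, on log2(FPKM + 0.5) values. Red and blue genes had no overlap of SHHN and control libraries in either line and moved the same way, 1336 up and 970 down, orange genes moved in opposite ways (368), and grey genes overlapped in at least 1 line. Gli1 and Ptch1 lie far out at the upper right, and Rps27 lies alone at the lower right.

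The Hedgehog list of 27 tested members had 16 that rose (59.3%) and 7 that fell (25.9%) in the mean over both lines. Among all tested genes 18.7% rose and 17.4% fell. The median change of the list was 0.56. Without overlap in either line, 13 members were higher and 2 lower, against 10.8% and 7.84% of all tested genes. Gli1, the GLI factor that is itself a GLI target, had 151, 149.8 and 139 FPKM in NIH-3T3 SHHN libraries against 0.129, 0.084 and 0.179 FPKM in NIH-3T3 controls. In MLg it had 128, 118 and 113 FPKM with SHHN against 0.906, 0.428 and 0.414 FPKM in controls. No control library of either line reached 1 FPKM, and no SHHN library was under 113 FPKM. The mean change of Gli1 was 7.35 ± 0.11 (SE) on the log2 scale (limma adjusted p = 4.28e-14), the highest of all genes named by the rule. Gli1 lies on chromosome 10, 127329882 to 127341579 (GRCm38.p6).

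The receptor gene Ptch1 followed. Ptch1 had 139, 160.1 and 114 FPKM in NIH-3T3 SHHN libraries against 2.27, 2.24 and 2.65 FPKM in controls. MLg had more, with 286, 249 and 244 FPKM under SHHN against 3.68, 2.32 and 3.63 FPKM. Ptch1 rose by 5.86 ± 0.12 (adjusted p = 5.99e-13), and its effects of 5.57 in NIH-3T3 and 6.15 in MLg did not pass the test of a difference (-0.58 ± 0.23, adjusted p = 0.119). Ptch1 lies on chromosome 13, 63508328 to 63573460 (GRCm38.p6).

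Hsd11b1 encodes the enzyme that regenerates active glucocorticoid inside cells. It had 8.27, 7.92 and 8.73 FPKM in NIH-3T3 with SHHN against 0.197, 0 and 0 FPKM in controls, and 58.9, 59.5 and 57.1 FPKM in MLg with SHHN against 3.12, 1.43 and 2.66 FPKM. MLg thus had the higher level in both treatments, and NIH-3T3 controls were at or near 0. The mean rise was 4.19 ± 0.15 (adjusted p = 4.86e-10), and the difference between the lines, -0.42 ± 0.29, did not pass (adjusted p = 0.379).

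Other members of the list that rose without overlap had smaller changes. Rasl11b, a small GTPase of the Ras family, rose by 2.80 ± 0.14, and Gli2, the main GLI activator, by 1.95 ± 0.10. Bcl2, the apoptosis inhibitor, had 8.74, 8.32 and 8.68 FPKM in NIH-3T3 with SHHN against 2.74, 1.99 and 2.80 FPKM in controls. In MLg its values were 9.58, 9.70 and 9.93 FPKM with SHHN against 2.43, 2.70 and 3.03 FPKM. The lines were nearly alike in level and in change, with effects of 1.60 and 1.67 and a mean of 1.64 ± 0.09 (adjusted p = 1.34e-08). Nr2f2, the orphan nuclear receptor COUP-TFII, rose by 1.63 ± 0.09, Foxl1, a forkhead factor of mesenchyme, by 1.27 ± 0.14, and Igfbp6, which binds insulin-like growth factor 2, by 1.21 ± 0.13. Sufu, the cytoplasmic inhibitor of GLI factors, rose by 0.46 ± 0.08 (adjusted p = 0.000516).

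The co-receptor Gas1, which helps Patched bind ligand, fell. It had 166, 208 and 181 FPKM in NIH-3T3 SHHN libraries against 444, 599 and 471 FPKM in controls, and 109.6, 212 and 155 FPKM in MLg SHHN libraries against 568, 877 and 630.3 FPKM. Its mean change was -1.79 ± 0.16 (adjusted p = 8.09e-07). Osr1, a zinc-finger factor of mesenchyme, fell by 1.71 ± 0.13. The co-receptor Cdon (-0.42 ± 0.12, adjusted p = 0.0173) and the GLI repressor Gli3 (-0.52 ± 0.14, adjusted p = 0.0105) passed the averaged test, but libraries overlapped in 1 line for each. The co-receptor Boc had a mean change of -0.18 ± 0.09 and did not pass (adjusted p = 0.152).

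A mean can also pass on the strength of 1 line. Mycn, a proto-oncogene, had 14.2, 16.3 and 15.8 FPKM in NIH-3T3 with SHHN against 2.01, 1.72 and 1.62 FPKM in controls, while no MLg library exceeded 0.0425 FPKM. Its mean change of 1.42 ± 0.09 is thus an average of 2.80 and 0.03. Smo, which encodes Smoothened, changed by 1.28 in NIH-3T3 and -0.16 in MLg, with a mean of 0.56 ± 0.12. The mean of Smo passed in the 4-group fit (adjusted p = 0.00216) and not in a model with 1 common effect for both lines (adjusted p = 0.0821). The D-type cyclins moved apart. Ccnd1 rose by 0.93 ± 0.11 in the mean (1.59 in NIH-3T3 and 0.26 in MLg), and Ccnd2 fell by 0.46 ± 0.12. Bmp4, a bone morphogenetic protein, had 11.4, 11.8 and 11.4 FPKM in MLg with SHHN against 30.5, 33.3 and 26.9 FPKM, and at most 0.132 FPKM in any NIH-3T3 library.

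**Figure D2:**
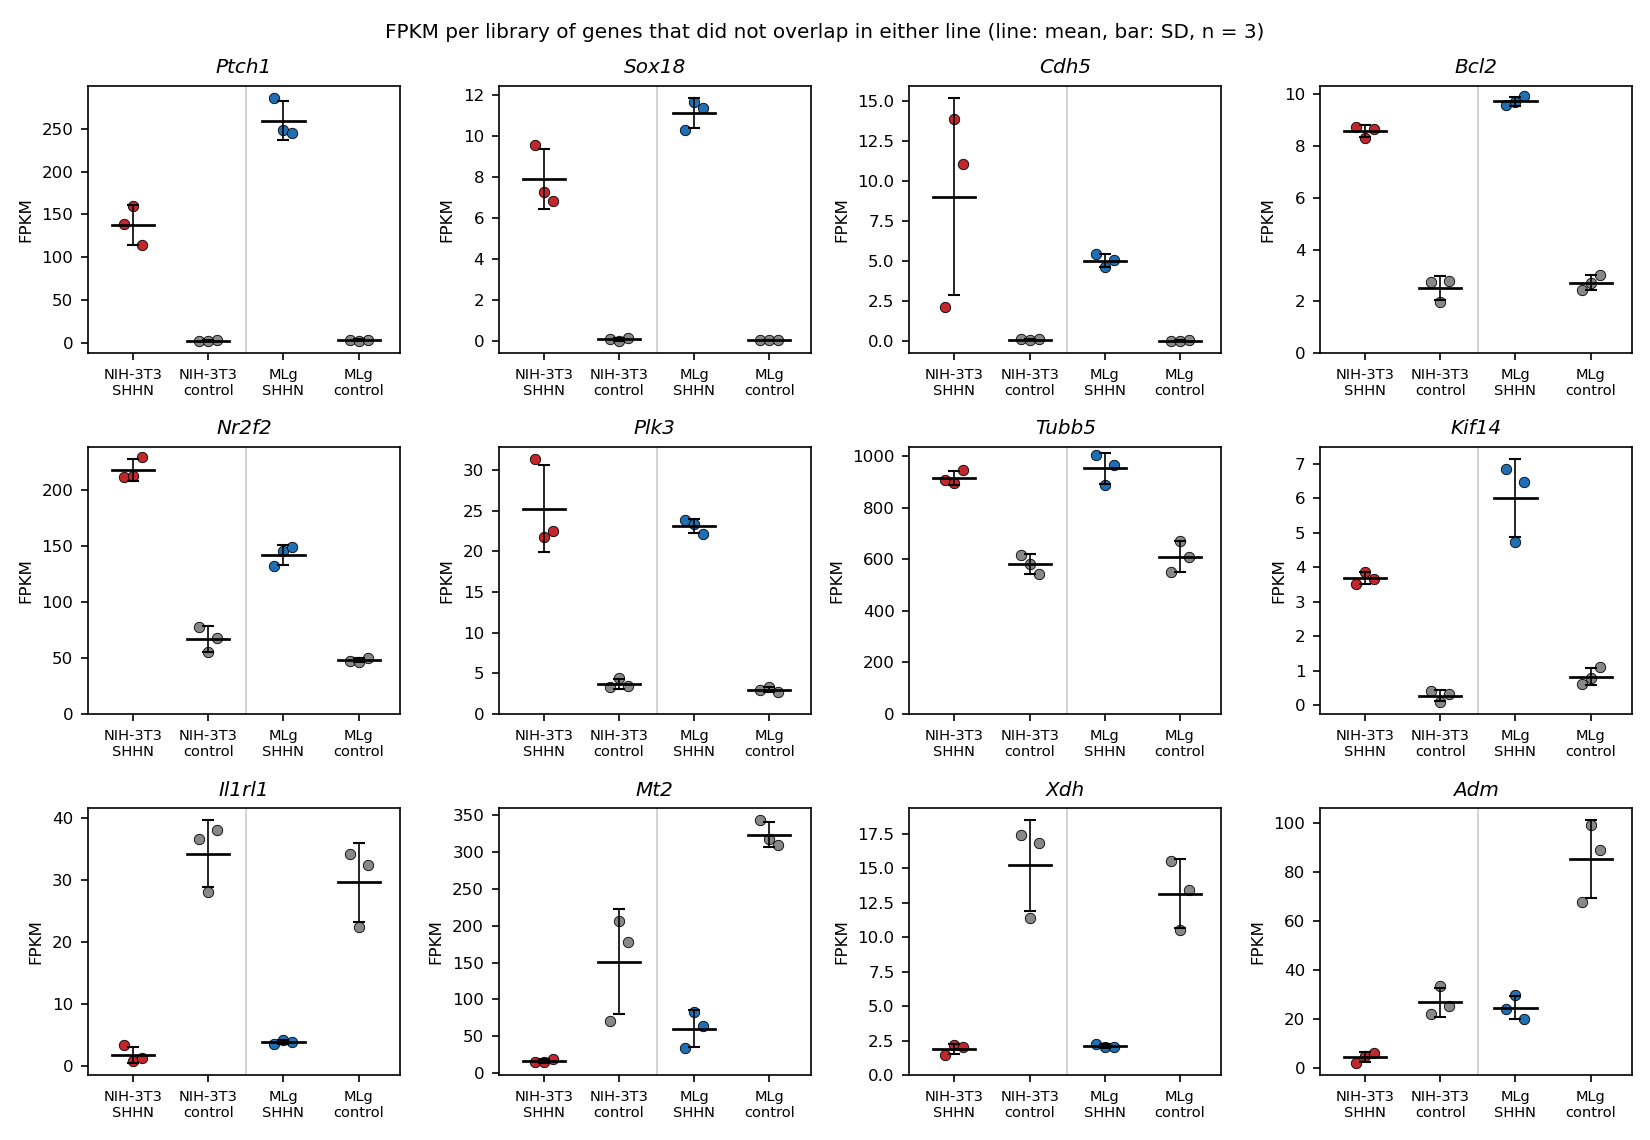
FPKM of 12 genes in each of the 12 libraries, with SHHN to the left of control in each line. Points are libraries, black lines the means and bars the SD over 3 libraries. SHHN and control libraries are separate in both lines for every gene drawn, and Cdh5 shows the low NIH-3T3 SHHN replicate 1 (2.10 FPKM).

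A group of genes lay on different sides of 0.5 FPKM in the 2 treatments. In 22 genes, 0.178% of those tested, all 6 controls were under 0.5 FPKM and all 6 SHHN libraries at or above it. In 5 genes, 0.0404%, the reverse held. This sorting was chosen after the values were seen. Of those described here, Wfdc1, Sox18, Pgf and Cdh5 were the most abundant. Wfdc1, a secreted protein with a whey acidic protein domain, was listed at 0 in all 6 controls. With SHHN it had 2.60, 6.63 and 7.35 FPKM in NIH-3T3 and 15.4, 14.2 and 15.7 FPKM in MLg.

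Sox18, a transcription factor of vascular endothelium, had 9.59, 7.30 and 6.84 FPKM in NIH-3T3 with SHHN against 0.0885, 0 and 0.139 FPKM in controls. MLg had 10.3, 11.7 and 11.4 FPKM with SHHN against 0.0351, 0.0419 and 0.0301 FPKM. The mean rise was 4.15 ± 0.11 (adjusted p = 1.61e-11), with effects of 3.86 and 4.44 in the lines. Cdh5 encodes VE-cadherin, the adhesion protein of endothelial junctions. It had 2.10, 13.9 and 11.1 FPKM in NIH-3T3 SHHN libraries against 0.103, 0.0507 and 0.0782 FPKM in controls, and 5.41, 4.63 and 5.03 FPKM in MLg with SHHN against 0, 0 and 0.0369 FPKM. It rose by 3.57 ± 0.31 (adjusted p = 8.22e-07), and by 3.96 without the low NIH-3T3 SHHN replicate 1.

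Of 8 endothelial markers only 2 were tested, and both rose in the mean, Cdh5 and Tek, the angiopoietin receptor. Tek had 4.54, 11.3 and 10.5 FPKM in NIH-3T3 with SHHN against 7.10, 5.70 and 7.80 FPKM in controls, which overlap, and 1.03, 1.01 and 0.788 FPKM in MLg with SHHN against 0.0261, 0.108 and 0.0298 FPKM. Its mean rise was 0.81 ± 0.18 (adjusted p = 0.00337). Emcn was at 0 in every group, and Cldn5 was at 0 in every group but NIH-3T3 with SHHN. The summed level of the 8 was 6.73 to 25.4 FPKM in NIH-3T3 with SHHN against 5.75 to 7.94 FPKM in controls. In MLg it was 6.29 to 7.01 FPKM with SHHN against 0.233 to 0.447 FPKM. In bulk RNA, more cells of a type and more RNA per cell cannot be told apart.

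Pgf, placental growth factor, was a secreted factor of the same group. It had 23.1, 9.60 and 10.4 FPKM in NIH-3T3 with SHHN against at most 0.0579 FPKM in controls. MLg had 3.39, 4.06 and 3.92 FPKM with SHHN against 0, 0.287 and 0.13 FPKM. Pgf rose by 3.72 ± 0.19 (adjusted p = 4.65e-09), more in NIH-3T3. The next genes did not cross 0.5 FPKM in this way. Ngfr, the low-affinity neurotrophin receptor, rose by 2.75 ± 0.13 in the mean, almost all of it from MLg (4.71, against 0.79 in NIH-3T3). Slit3, an axon guidance ligand, rose by 1.62 ± 0.15. On the list of angiogenic and neurotrophic factors, 8 of 15 tested members rose (53.3%, against 18.7% of all tested genes). Another 3 fell (20.0%, near the 17.4% of all tested genes). Ptn, pleiotrophin, is a growth factor outside that list and was among the most abundant genes that fell, by 1.72 ± 0.13. It had 813, 1314 and 1409 FPKM in NIH-3T3 with SHHN against 5362, 5208 and 5854 FPKM in controls, and 319.9, 289.8 and 304 FPKM in MLg with SHHN against 598, 734 and 745 FPKM.

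Other genes that crossed 0.5 FPKM upward were less abundant. Cdh17, an adhesion protein of intestinal epithelium, had 1.56 to 7.80 FPKM over SHHN libraries against 0.223 to 0.467 FPKM over controls. Abca8a, a lipid transporter of the ABC family, had 1.48 to 2.21 FPKM against 0.108 to 0.211 FPKM. Kcns2, a potassium channel subunit, had 0.556 to 4.69 FPKM against 0 to 0.0707 FPKM. Cygb, the haem protein cytoglobin, had 0.528 to 3.38 FPKM against 0 to 0.191 FPKM. Polq, the DNA polymerase of end joining, had 1.02 to 1.93 FPKM against 0.106 to 0.378 FPKM, and Mlf1 had 1.58 to 3.50 FPKM against 0.214 to 0.454 FPKM. The 5 genes that crossed downward were Fosl1, Ifi44, Cxcl10, Htra3 and Tcf7. Fosl1, an AP-1 subunit, had 0.0265 to 0.458 FPKM with SHHN against 1.62 to 4.28 FPKM in controls. Htra3, a serine protease, had 0.0571 to 0.31 FPKM against 0.729 to 1.33 FPKM, and Tcf7, a nuclear partner of beta-catenin, 0.0293 to 0.335 FPKM against 0.516 to 0.896 FPKM.

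**Figure D3:**
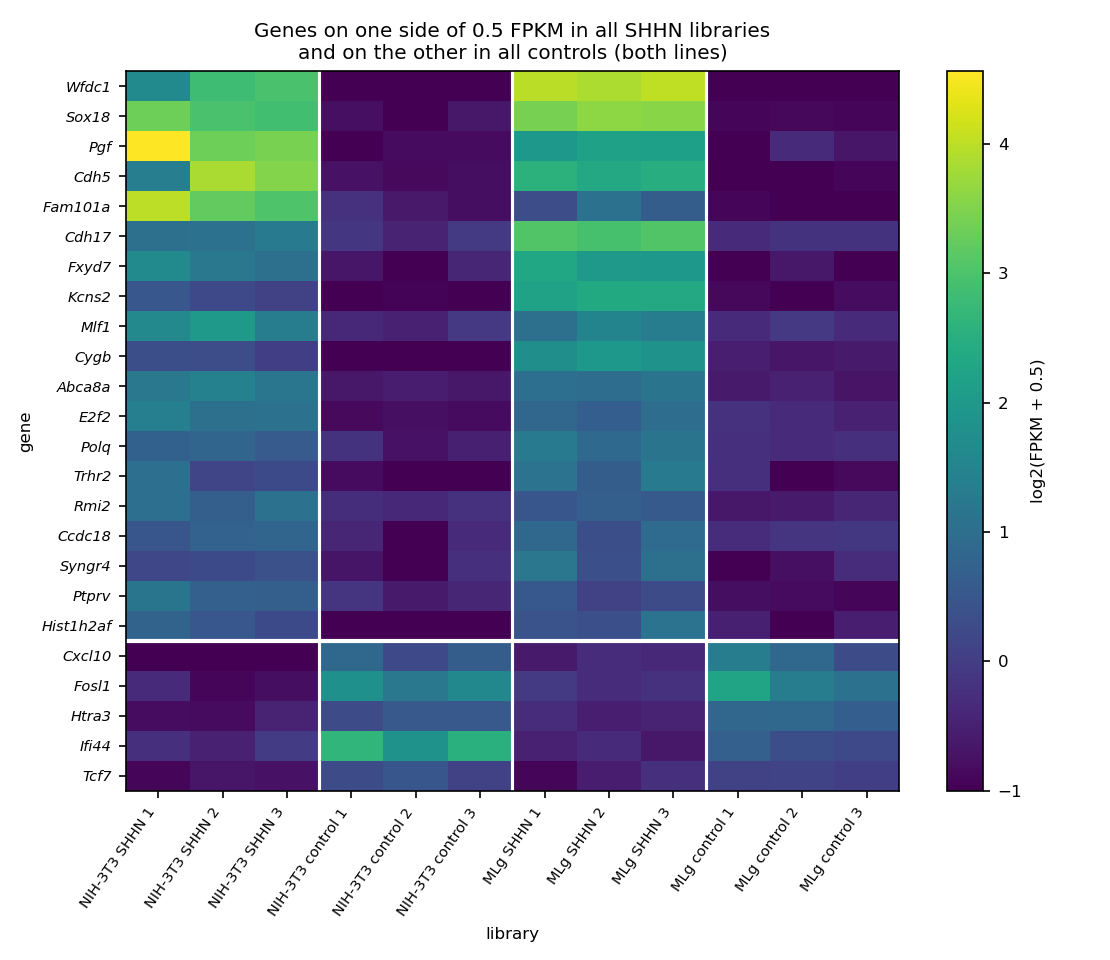
Log2(FPKM + 0.5) of 24 named genes that lay on one side of 0.5 FPKM in all SHHN libraries and on the other in all controls, with libraries in columns. The upper block holds 19 genes at or above 0.5 FPKM with SHHN, led by Wfdc1, and the lower block 5 genes under it.

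Hes1, a helix-loop-helix repressor best known as a Notch target, had 67.5, 40.5 and 45.2 FPKM in NIH-3T3 with SHHN against 0.162, 0.0477 and 0.588 FPKM in controls. MLg had 13.5, 14.7 and 14.9 FPKM with SHHN against 1.67, 1.66 and 0.923 FPKM. Its mean rise of 4.54 ± 0.18 (adjusted p = 7.51e-10) joined unequal effects of 6.10 and 2.98. Ctgf, a matricellular protein and a textbook target of YAP, had 54.3, 26.0 and 28.1 FPKM against 0.569, 0.816 and 0.831 FPKM in NIH-3T3. In MLg the values were 91.9, 94.8 and 89.0 FPKM with SHHN against 4.21, 9.30 and 8.0 FPKM. Ctgf rose by 4.24 ± 0.20 (adjusted p = 1.85e-09). Its relative Cyr61, also a YAP target, moved the other way and fell by 1.56 ± 0.11, to 4.57, 4.64 and 5.04 FPKM in NIH-3T3 with SHHN against 12.1, 13.1 and 11.2 FPKM.

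Others among the highest mean changes were Mxd3 (3.25 ± 0.18), a MAX-binding repressor, Steap4 (3.17 ± 0.30), a metalloreductase, and Mfap3l (2.97 ± 0.12). Fam65b, an inhibitor of RhoA, rose by 2.82 ± 0.13 with effects of 2.88 and 2.77 in the lines, and Fam101a, a filamin-binding protein, by 2.80 ± 0.18 with effects of 3.95 and 1.65. Steap4 had 0.641, 3.63 and 4.12 FPKM in NIH-3T3 SHHN libraries, so that replicate 1 lay far below the others, and the mean rise without it was 3.49. In MLg it had 25.7, 27.5 and 29.0 FPKM with SHHN against 1.56, 0.50 and 0.773 FPKM.

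Of the 18 gene lists, only the cell-cycle lists had every tested member called in 1 direction. All 26 tested genes of G1/S and replication rose in the mean, as did all 25 of G2/M and mitosis, and none overlapped in either line. Among all tested genes 18.7% rose, and 10.8% were higher in both lines without overlap. The median change was 1.87 for G1/S (range 1.19 to 2.77) and 2.42 for G2/M (range 1.76 to 2.77). With SHHN the G2/M median was 2.86 in NIH-3T3 and 2.04 in MLg. The lines differed for 15 of the G2/M genes and for 1 of the G1/S genes by the test of the difference, which called 13.4% of all tested genes.

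Tk1, thymidine kinase, had 40.5, 40.0 and 47.0 FPKM in NIH-3T3 with SHHN against 4.21, 5.66 and 4.24 FPKM, and 81.1, 74.5 and 84.9 FPKM in MLg with SHHN against 8.60, 18.6 and 16.4 FPKM. It rose by 2.77 ± 0.15 (adjusted p = 9.80e-09). Ccne2, cyclin E2 of the G1/S transition, rose by 2.69 ± 0.21, Mcm5, a subunit of the replicative helicase, by 2.56 ± 0.10, and Cdc6, which loads that helicase, by 2.42 ± 0.14. Kif11, the kinesin that separates spindle poles, had 18.5, 18.7 and 22.1 FPKM in NIH-3T3 with SHHN against 2.77, 1.03 and 2.40 FPKM. MLg had 29.6, 24.6 and 32.0 FPKM against 3.78, 5.69 and 7.67 FPKM, and its mean rise was 2.66 ± 0.19. Cdk1, the mitotic kinase, rose by 1.76 ± 0.12, the least of its list.

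Several of the genes picked as most equal between the lines belonged to the same processes. Esco2, the acetyltransferase that establishes sister chromatid cohesion, rose by 2.76 in each line. Cdc6 and Kif14, a kinesin of cytokinesis (2.37 ± 0.14), had line effects that differed by -0.10 and 0.16. Slfn9, of the Schlafen family, rose by 2.61 ± 0.21, and the GTPase gene Rasl11a fell by 2.48 ± 0.17, with line effects likewise close. These genes were picked for the smallest line differences among the 100 largest mean changes. That none passed the test of a difference (adjusted p from 0.754 to 0.998) thus follows from the choice. It does not show that the effects were equal.

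Promoters of these groups were read for the letters of well-known motifs, on both strands in the 250 bases before the RefSeq start (GRCm38.p6), which was at hand for 9384 of the tested genes. The E2F letters were TTTGGCGC, TTTCGCGC or TTCCCGCC. They stood in 30.0% of G1/S promoters (6 of 20) against 5.59% of all. The cell cycle homology region, TTTGAA, stood in 38.1% of G2/M promoters (8 of 21) against 12.4% of all, and the CCAAT box in 85.7% (18 of 21) against 41.0%. The GLI letters GACCACCCA stood in 0.896% of promoters of the 1336 shared higher genes (9 of 1004), in 0.133% of those of the 970 shared lower genes (1 of 752) and in 0.266% of all. The highest of the 9 were Espl1, which encodes the separase of anaphase (mean change 2.42), and 1 predicted gene. Median GC content was 60.4% in the shared higher and 59.6% in the shared lower promoters, against 60.0% in all. These are descriptions, and a match is not a binding site. The windows below are shown because they carry these letters in genes described here, with E2F, TTTGAA and CCAAT letters of either strand in capitals. In Mcm5 (chr8:75109259-75109508, plus strand) 2 E2F matches overlap. The RefSeq gene entry of Mcm5 starts at 75109468, inside this window, so the last bases of the window lie past that start. Cdk1 (chr10:69352913-69353162, minus strand) holds 6 matches in all. Kif11 (chr19:37376132-37376381, plus strand) holds 2, and in Mcm5 only E2F letters are in capitals.
Mcm5: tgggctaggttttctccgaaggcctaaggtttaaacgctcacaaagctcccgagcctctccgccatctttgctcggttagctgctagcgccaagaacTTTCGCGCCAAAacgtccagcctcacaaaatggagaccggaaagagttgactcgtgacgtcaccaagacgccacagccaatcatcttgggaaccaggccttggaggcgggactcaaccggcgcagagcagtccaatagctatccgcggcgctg
Cdk1: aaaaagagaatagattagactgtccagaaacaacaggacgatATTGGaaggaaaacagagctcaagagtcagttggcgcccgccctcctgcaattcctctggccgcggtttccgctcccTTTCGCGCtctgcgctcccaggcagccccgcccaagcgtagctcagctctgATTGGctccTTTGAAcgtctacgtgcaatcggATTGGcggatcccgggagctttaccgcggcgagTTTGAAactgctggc
Kif11: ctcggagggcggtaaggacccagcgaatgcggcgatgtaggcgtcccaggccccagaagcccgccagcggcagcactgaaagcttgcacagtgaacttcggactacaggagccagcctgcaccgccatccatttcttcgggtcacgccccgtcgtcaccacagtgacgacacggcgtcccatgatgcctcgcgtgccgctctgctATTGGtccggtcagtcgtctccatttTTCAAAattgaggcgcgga

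Of 17 tested members of the p53 target list, 8 rose (47.1%, against 18.7% of all tested genes) and 1 fell (5.9%, against 17.4%). Without overlap in both lines, 4 were higher, against 10.8% of all tested genes. Plk3, a stress-responsive Polo-like kinase, had 31.4, 21.8 and 22.5 FPKM in NIH-3T3 with SHHN against 3.30, 4.41 and 3.47 FPKM, and 23.8, 23.4 and 22.1 FPKM in MLg with SHHN against 2.94, 3.31 and 2.75 FPKM. The lines shared both levels, and Plk3 rose by 2.67 ± 0.11 (adjusted p = 7.51e-10). Eda2r, a receptor of the tumour necrosis factor family, rose by 1.83 ± 0.16.

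Among signalling ligands, the Wnt list had 3 of 9 tested members that rose and 3 that fell. Each share was 33.3%, against 18.7% and 17.4% of all tested genes. Dkk2, a Wnt antagonist, rose by 1.33 ± 0.11, and the ligands Wnt9a and Wnt5a by 0.81 ± 0.09 and 0.68 ± 0.16. Tcf7, named earlier, fell by 0.86 ± 0.13. Of 19 tested members of the BMP, TGF-beta and activin list, 3 rose (15.8%, against 18.7%) and 10 fell (52.6%, against 17.4%). Only 2 and 1 of these had no overlap, against 10.8% and 7.84% of all tested genes. A further 2 members moved in opposite directions without overlap, against 2.97% of all tested genes. Inhba, the activin A subunit, had 72.0, 39.9 and 35.9 FPKM in NIH-3T3 with SHHN against 3.57, 3.76 and 4.15 FPKM. MLg had 36.6, 30.0 and 30.3 FPKM with SHHN against 12.5, 16.3 and 12.1 FPKM, and the mean rise was 2.34 ± 0.15. Tgfbi, a matrix protein named for its induction by TGF-beta, fell by 2.13 ± 0.12.

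Inflammatory genes were the counterpart of the cell-cycle genes. Of 19 tested members of the list of cytokines, chemokines and NF-kB targets, 18 fell in the mean (94.7%, against 17.4% of all tested genes). In the mean 0 rose, and the median change was -1.69. Without overlap in both lines, 10 were lower, against 7.84% of all tested genes. In opposite directions without overlap moved 1, against 2.97% of all tested genes. Il1rl1, the receptor of interleukin 33, had 3.28, 0.842 and 1.22 FPKM in NIH-3T3 with SHHN against 36.6, 28.1 and 38.2 FPKM. MLg had 3.60, 4.23 and 3.90 FPKM with SHHN against 34.2, 22.4 and 32.4 FPKM. The controls of the lines overlapped, and with SHHN the level was lower in every NIH-3T3 library than in any MLg library. Il1rl1 fell by 3.41 ± 0.21 (adjusted p = 2.20e-08), and by 3.63 without NIH-3T3 SHHN replicate 1.

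Complement C3 had 0.674, 2.07 and 1.68 FPKM in NIH-3T3 with SHHN against 54.6, 39.4 and 42.5 FPKM, and 25.6, 23.3 and 21.2 FPKM in MLg with SHHN against 116, 54.1 and 60.9 FPKM. It fell by 3.11 ± 0.21 in the mean, with effects of -4.60 in NIH-3T3 and -1.62 in MLg. The monocyte chemoattractants showed the same inequality. Ccl2 had 2.80, 0.99 and 1.19 FPKM in NIH-3T3 with SHHN against 25.5, 28.4 and 23.8 FPKM, whereas in MLg it had 75.4, 67.3 and 71.4 FPKM against 211, 179 and 164 FPKM. Ccl2 fell by 2.53 ± 0.16 and Ccl7 by 2.95 ± 0.16. Bcl3, a nuclear IκB protein, fell by 2.86 ± 0.11, and Cxcl1, a neutrophil chemokine, by 1.68 ± 0.24.

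Interferon-stimulated genes fell in 16 of 20 tested members, against 17.4% of all tested genes, and rose in 0, against 18.7%. Their median change was -0.69, and 12 were lower without overlap in both lines, against 7.84% of all tested genes. Only 10 passed as lower in each line alone. The lines differed for 8 by the test of the difference, which called 13.4% of all tested genes. Ifitm3, which blocks virus entry, had 86.1, 43.7 and 56.6 FPKM in NIH-3T3 with SHHN against 419.5, 583 and 456 FPKM, and 235, 313 and 271 FPKM in MLg with SHHN against 596, 645 and 514 FPKM. It fell by 2.05 ± 0.15. Ifi44 fell by 1.75 ± 0.15, and Xaf1, a pro-apoptotic interferon target, by 1.09 ± 0.12 with effects of -1.11 and -1.06 in the lines. The chemokine Cxcl10 was listed at 0 in all 3 NIH-3T3 SHHN libraries against 1.33, 0.679 and 1.05 FPKM in controls. In MLg it had 0.163, 0.313 and 0.27 FPKM with SHHN against 2.06, 1.32 and 0.719 FPKM.

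The NF-kB letters GGNNTTTCC stood in 50.0% of promoters of the tested inflammatory genes (7 of 14) against 6.17% of all promoters, and in 8.64% of those of shared lower genes. The interferon-stimulated response element, read as GAAA, any 2 bases and GAAA, stood in 46.7% of interferon gene promoters (7 of 15) against 3.03% of all and 3.99% of those of shared lower genes. Both lists were drawn up as targets of these factors, so the shares describe the lists. A pair of chemokine windows is shown with these letters in capitals, Cxcl1 (chr5:90890995-90891244, plus strand) with 2 NF-kB matches and Cxcl10 (chr5:92348890-92349139, minus strand) with 1 of each motif.
Cxcl1: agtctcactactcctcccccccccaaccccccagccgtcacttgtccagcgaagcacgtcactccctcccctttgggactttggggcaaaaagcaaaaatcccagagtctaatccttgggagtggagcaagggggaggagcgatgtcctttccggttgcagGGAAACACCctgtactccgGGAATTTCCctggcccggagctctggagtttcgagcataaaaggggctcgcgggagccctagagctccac
Cxcl10: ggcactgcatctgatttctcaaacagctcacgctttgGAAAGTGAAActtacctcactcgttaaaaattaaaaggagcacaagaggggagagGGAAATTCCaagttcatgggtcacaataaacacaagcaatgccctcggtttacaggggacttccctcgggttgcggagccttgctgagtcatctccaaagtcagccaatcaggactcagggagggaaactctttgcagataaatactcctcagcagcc

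**Figure D4:**
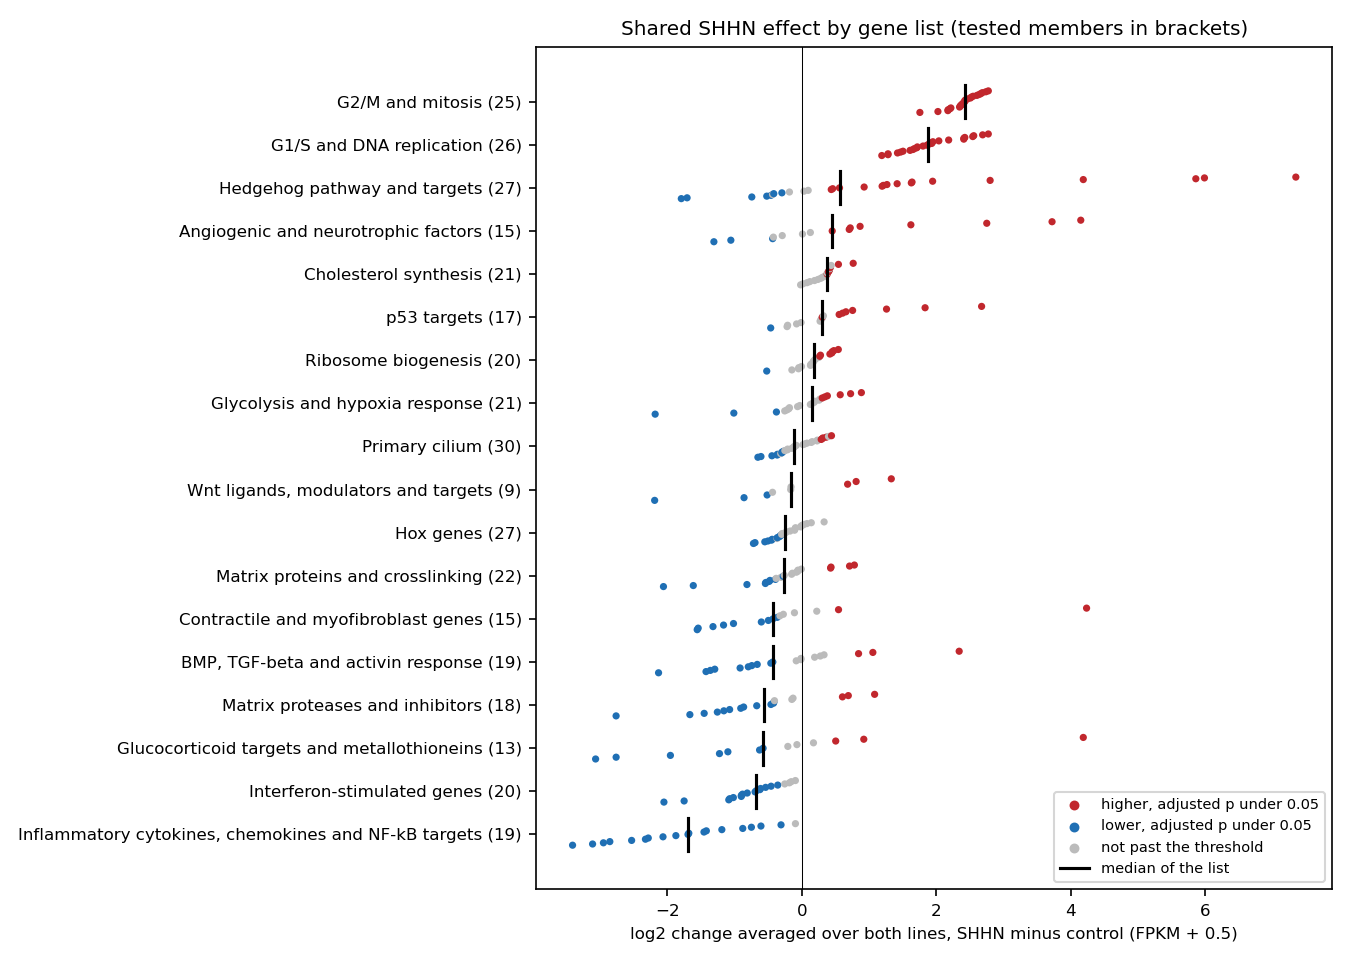
Log2 change averaged over both lines (x axis) of each tested member of 18 gene lists, ordered by median (black line). Red members rose, blue members fell and grey members did not pass the threshold. The 2 cell-cycle lists hold only red points, and the inflammatory and interferon lists hold no red point.

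Matrix proteins moved in both directions. Of 22 tested members 4 rose in the mean (18.2%, near the 18.7% of all tested genes) and 9 fell (40.9%, against 17.4%). In each direction 3 were free of overlap in both lines, against 10.8% (higher) and 7.84% (lower) of all tested genes. Another 3 moved in opposite directions without overlap, against 2.97% of all tested genes. Under quantile normalization 5 fell. Col6a1 and Col6a2, chains of collagen VI, rose by 0.43 ± 0.10 and 0.78 ± 0.10. Col6a2 had 890.2, 774 and 689 FPKM in NIH-3T3 with SHHN against 486, 532 and 435 FPKM, and 515, 469.5 and 451 FPKM in MLg with SHHN against 295, 265 and 227 FPKM. Fbln2, fibulin 2 of elastic fibres, is outside the list and rose by 1.01 ± 0.09. Col1a2, of collagen I, fell by 0.54 ± 0.11 (adjusted p = 0.00197), and this call ended under quantile normalization (adjusted p = 0.171). Lox, the enzyme that crosslinks collagen and elastin, had 50.8, 95.2 and 88.9 FPKM in NIH-3T3 with SHHN against 531, 353 and 512 FPKM, and 54.3, 63.1 and 53.8 FPKM in MLg with SHHN against 152, 163 and 179 FPKM. Lox fell by 2.06 ± 0.15 (adjusted p = 1.28e-07).

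Proteases and their inhibitors mostly fell, 12 of 18 tested members (66.7%, against 17.4% of all tested genes). Another 3 rose (16.7%, near the 18.7% of all tested genes). Without overlap 7 were lower and 1 higher, against 7.84% and 10.8% of all tested genes. Cemip, which cleaves hyaluronan, had 1.68, 2.81 and 2.30 FPKM in NIH-3T3 with SHHN against 25.8, 17.4 and 23.8 FPKM. In MLg it had 19.9, 24.0 and 16.4 FPKM against 91.7, 115 and 136 FPKM, a mean fall of 2.76 ± 0.14 (adjusted p = 5.06e-09). Both plasminogen activators fell, urokinase (Plau) by 1.66 ± 0.13 and the tissue type (Plat) by 1.07 ± 0.10, as did the matrix metalloproteinase Mmp19, by 1.26 ± 0.08. Has2, the hyaluronan synthase, stood just outside the rule. It had 30.8, 26.7 and 29.3 FPKM in MLg with SHHN against 0.411, 0.478 and 0.539 FPKM, whereas its NIH-3T3 libraries overlapped (16.6, 13.3 and 14.3 FPKM against 18.8, 10.6 and 17.8 FPKM).

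Contractile genes fell in 9 of 15 tested members (60.0%, against 17.4% of all tested genes) and rose in 2 (13.3%, against 18.7%). Ctgf was 1 of those that rose, and 6 members were lower without overlap in both lines, against 7.84% of all tested genes. Lmod1, leiomodin 1 of smooth muscle filaments, fell by 1.54 ± 0.13. Tagln, transgelin, had 18.6, 5.07 and 5.05 FPKM in NIH-3T3 with SHHN against 32.0, 35.1 and 32.3 FPKM, and 64.3, 68.6 and 58.8 FPKM in MLg with SHHN against 72.8, 133 and 102 FPKM. It fell by 1.32 ± 0.26 (adjusted p = 0.0012), and by 1.62 without NIH-3T3 SHHN replicate 1.

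Metabolic and stress genes included some of the largest falls. In the list of glucocorticoid targets and metallothioneins 7 of 13 tested members fell (53.8%, against 17.4% of all tested genes). Another 3 rose (23.1%, against 18.7%), Hsd11b1 among them. Mt2, a metal-binding protein, had 15.1, 15.3 and 19.3 FPKM in NIH-3T3 with SHHN against 71.5, 206 and 177 FPKM. MLg had 34.2, 83.7 and 63.7 FPKM with SHHN against 343, 318 and 309.6 FPKM. It fell by 2.76 ± 0.25 (adjusted p = 9.88e-07). Angptl4, an inhibitor of lipoprotein lipase, had 4.56, 51.7 and 44.3 FPKM in NIH-3T3 with SHHN against 213, 237 and 183 FPKM, and 3.19, 4.25 and 3.15 FPKM in MLg with SHHN against 54.0, 23.7 and 20.8 FPKM. It fell by 3.07 ± 0.46 (adjusted p = 0.00014), and by 2.52 without NIH-3T3 SHHN replicate 1. Pdk4, a kinase that shuts off pyruvate dehydrogenase, fell by 1.95 ± 0.11.

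The glycolysis and hypoxia list had 6 of 21 members that rose (28.6%, against 18.7% of all tested genes) and 3 that fell (14.3%, against 17.4%). Adm, the vasodilator peptide adrenomedullin, went against those that rose and fell by 2.18 ± 0.20. Xdh, xanthine dehydrogenase of purine breakdown, had 1.46, 2.18 and 2.05 FPKM in NIH-3T3 with SHHN against 17.4, 11.4 and 16.8 FPKM, and 2.24, 2.0 and 2.01 FPKM in MLg with SHHN against 15.5, 10.5 and 13.4 FPKM, a mean fall of 2.54 ± 0.13 (adjusted p = 5.36e-09). Of 21 cholesterol synthesis genes 8 rose (38.1%, against 18.7% of all tested genes) and 0 fell. Their median change was -0.02 in NIH-3T3 and 0.65 in MLg. Only 1 was higher without overlap in both lines, against 10.8% of all tested genes, and 1 moved in opposite directions without overlap, against 2.97%. The count of 8 was 4 without MLg control replicate 1 or MLg SHHN replicate 1, and 5 without MLg SHHN replicate 3 or NIH-3T3 SHHN replicate 1. Ribosome biogenesis had 7 that rose (35.0%, against 18.7%) and 1 that fell (5.0%, against 17.4%) of 20.

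Hox genes, which mark position along the body axis, fell in 10 of 27 tested members (37.0%, against 17.4% of all tested genes). They rose in 0, and 4 were lower without overlap, against 7.84% of all tested genes. Some of these 4 were at or under 0.235 FPKM in every NIH-3T3 library. The median change was -0.01 in NIH-3T3 and -0.42 in MLg, and 2 members fell past the threshold in both lines. Hoxa5 fell by 0.70 ± 0.10 and Hoxa2 by 0.55 ± 0.11. Of 30 genes of the primary cilium, the organelle of Hedgehog reception, 5 rose (16.7%, against 18.7% of all tested genes) and 8 fell (26.7%, against 17.4%), and the fall count was 5 without MLg SHHN replicate 1. Their median of -0.11 compares with -0.012 for all tested genes.

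Further large shared falls came from unrelated families. Gdpd2, a glycerophosphodiesterase, fell by 2.98 ± 0.19. Ptchd1, a membrane protein with a Patched domain, fell by 2.68 ± 0.15, to 0.906, 0.622 and 0.613 FPKM in NIH-3T3 with SHHN against 15.5, 8.40 and 14.9 FPKM, and to 0.424, 0.41 and 0.334 FPKM in MLg with SHHN against 2.82, 2.41 and 3.58 FPKM. Tinagl1, a matrix protein, fell by 2.33 ± 0.13. The proliferin genes Prl2c2 (-3.52 ± 0.13) and Prl2c3 (-3.19 ± 0.17) are near-identical copies, so the split of fragments between them is uncertain.

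The most abundant shared genes changed by unlike amounts. Ptma, prothymosin alpha, had 1093, 1152 and 1222 FPKM in NIH-3T3 with SHHN against 787, 898 and 776 FPKM, and rose by 0.40 ± 0.09. Tubb5, a beta-tubulin, rose by 0.65 ± 0.08 with effects of 0.66 and 0.65. H19, an imprinted long non-coding RNA, had 1588, 2521 and 2767 FPKM in NIH-3T3 with SHHN against 1105, 1220.5 and 1157 FPKM, and 265, 218.5 and 263 FPKM in MLg with SHHN against 65.7, 70.5 and 83.0 FPKM. It rose by 1.35 ± 0.13. S100a4, a calcium-binding protein often used as a fibroblast marker, fell by 0.63 ± 0.14. The ribosomal protein genes Rps28 (-0.64 ± 0.17) and Rpl10 (-0.55 ± 0.11) have processed copies elsewhere in the genome, so their values are uncertain. Eef2, an elongation factor, fell by 0.45 ± 0.11 (adjusted p = 0.00515), and its call ended under quantile normalization (adjusted p = 0.336). In MLg alone Ptma, Rps28, Rpl10 and Eef2 did not pass (limma adjusted p = 0.107, 0.366, 0.157 and 0.181).

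In 368 genes, 2.97% of those tested, libraries did not overlap in either line but moved in opposite directions. The mean did not pass for 307 of these, passed as higher for 29 and as lower for 32. Fjx1, whose fly homologue regulates growth and planar polarity, had a mean change of 0.05 ± 0.14 (adjusted p = 0.828). It had 4.03, 4.27 and 4.39 FPKM in NIH-3T3 with SHHN against 0.829, 1.47 and 0.673 FPKM, and 5.78, 9.02 and 7.06 FPKM in MLg with SHHN against 26.6, 23.0 and 19.4 FPKM. Agtr2, the type 2 angiotensin receptor (-1.71 in NIH-3T3 and 1.40 in MLg), and Negr1, a neuronal adhesion protein (1.26 and -1.65), likewise had means that did not pass (adjusted p = 0.436 and 0.297). Cacna1g, a T-type calcium channel subunit, changed by -2.64 in NIH-3T3 and 1.31 in MLg, and its mean of -0.67 ± 0.09 passed (adjusted p = 6.69e-05). Rps27, a ribosomal protein gene with near-identical copies, had 5.59, 4.20 and 5.54 FPKM in NIH-3T3 with SHHN against 1620, 7184 and 4576 FPKM, and 187, 199 and 85.2 FPKM in MLg with SHHN against 5.83, 6.87 and 4.84 FPKM. The mean change of Rps27 was -2.42 ± 0.30 (adjusted p = 2.66e-05). Its values are uncertain, since the authors' counting could assign fragments to another copy.

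Of the shared genes, 225 of the 1336 higher (16.8%) and 142 of the 970 lower (14.6%) differed in size between the lines by the test of the difference. These shares are near the 13.4% of all tested genes that this test called. The effect was larger in NIH-3T3 for 149 higher and 116 lower genes, and larger in MLg for 76 and 26. Over all 12379 tested genes the effects in the lines correlated at Pearson 0.549 and Spearman 0.413, a description over genes, which are not independent replicates. Lrrc8d, a subunit of the volume-regulated anion channel, stood outside the rule with 13.5, 14.5 and 13.2 FPKM in NIH-3T3 with SHHN against 0.755, 0.153 and 0.684 FPKM and overlapping MLg libraries.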

How the data were processed

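RNA sequencing values of 12 libraries were analysed. The authors deposited them as FPKM, in 1 table of all genes. According to the submitters' processing notes, bcl2fastq, TopHat2 2.0.12, Cufflinks 2.2.1 and the mm10 build were used. The annotation, strandedness and scaling between libraries are not given in the sources used here. Depth is unknown, because neighbouring libraries shared the most common ratio of low values in only 1.92% to 3.61% of genes, so whole reads could not be recovered. Intervals from counting are therefore not given.

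Values were analysed as log2(FPKM + 0.5), which understates the change of low genes, with limma 3.58.1 in R 4.3.3 (4 group means, variance trend, two-sided tests, Benjamini-Hochberg over 12379 genes, threshold 0.05). The contrasts were the mean of the SHHN effects, each effect alone and their difference (NIH-3T3 minus MLg). On simulated data the averaged contrast over 12379 genes called 94% of genes changed 2-fold, 99% of those changed 4-fold and 8 of 12179 unchanged genes. The simulated noise was normal and independent between libraries, and 100 genes of each size changed equally in both lines. The real data differ in these respects, so the 8 calls are not an error rate for them. Coordinates and promoters are RefSeq (GRCm38.p6), the mm10 assembly.

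Members, the 18 gene lists, 6 marker lists, motifs and tests were chosen with earlier results of these data known, so counts over lists describe them. Named genes were, among shared genes, the 15 highest and 15 lowest mean changes, the 6 most abundant per direction, the 6 most equal and 6 most unequal of the 100 largest, 6 opposite genes, Hedgehog genes and up to 4 per list. Not all are printed, and a few genes are not reported here. Genes at the threshold of 0.5 FPKM, Cdk1, Cxcl1, Espl1, Has2, Lrrc8d, Tollip and Pgm1 were added after their values were seen. Same-numbered MLg libraries correlated after removal of group means (0.132, 0.157 and 0.241), so the numbers may pair them, whereas NIH-3T3 libraries did not (-0.000703, -0.101 and 0.0269). Alternatives were pseudocounts of 0.1 and 1, a 1 FPKM filter, no filter, quantile and median-ratio scaling, an additive model, a replicate block, robust variances, a required 2-fold change and leaving out each library.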

Additional observations from a re-analysis of the deposited data

Results flagged for a closer look

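For 47 of the 117 genes named in the text, the effect of SHHN differed between the lines by the test of the difference itself (limma, adjusted p under 0.05). That test called 13.4% of all tested genes. Hes1, C3, Ccl7, Ccl2, Steap4 and Fam101a were named because their line effects differed most, and the opposite genes because their directions differed. Their calls follow from that choice, so the count of 47 is a description. Groups of 3 libraries are too small for a test of single outlying libraries. Differences are NIH-3T3 minus MLg on the log2(FPKM + 0.5) scale, so that for genes that fell a negative value is the larger fall in NIH-3T3.

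Among the core of the pathway the rise was larger in NIH-3T3 for Gli1 (1.04 ± 0.22 SE) and Gli2 (1.38 ± 0.20). The same direction was seen for Smo (1.44), Ccnd1 (1.33) and Mycn (2.77), whose change came mostly from NIH-3T3, and Osr1 fell more in NIH-3T3 (-1.21). Bmp4 (1.20) fell in MLg, and its difference did not pass with a pseudocount of 0.1 (adjusted p = 0.138). Rises were also larger in NIH-3T3 for Hes1 (3.12), Fam101a (2.30), Inhba (2.23), Pgf (1.91), Eda2r (1.64), Fbln2 (0.76) and Thy1 (0.73), the last at or near 0 in MLg. For Fbln2 the call ended without MLg SHHN replicate 3 (adjusted p = 0.0539).

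Rises were larger in MLg for Ngfr (-3.91), Kcns2 (-1.96), Cdh17 (-1.90), Wfdc1 (-1.48), Slit3 (-1.36) and Cygb (-1.23). Wfdc1 was listed at 0 in all controls and Cygb in NIH-3T3 controls, so these sizes depend on the pseudocount, and with 0.1 the difference of Cygb did not pass (adjusted p = 0.193). In addition, Has2 (-4.97) and Lrrc8d (3.71), outside the rule, changed in MLg and in NIH-3T3.

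Falls were larger in NIH-3T3 for the inflammatory genes C3 (-2.99), Ccl7 (-2.59), Ccl2 (-2.34) and Bcl3 (-2.03) and for the interferon genes Ifitm3 (-1.90) and Ifi44 (-1.68). Other larger falls in NIH-3T3 were those of Prl2c2 (-1.95), Pdk4 (-1.79), Prl2c3 (-1.54), Mmp19 (-1.53), Ptchd1 (-1.49), Tinagl1 (-1.49) and Lmod1 (-1.41). Ptn (-1.08) also fell more there, but not under quantile normalization (adjusted p = 0.275).

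Genes without overlap that moved in opposite directions were Rps27 (-13.95), Cacna1g (-3.95), Fjx1 (3.31), Agtr2 (-3.11) and Negr1 (2.92).

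Some differences passed only while nearly all libraries were in the fit. The difference of Mxd3 (1.26, adjusted p = 0.0381) ended when any library but MLg control replicate 1 or NIH-3T3 control replicate 2 was left out, with adjusted p from 0.0528 to 0.0914. The difference of Rasl11b (0.99, adjusted p = 0.0347) was kept only without MLg control replicate 3, NIH-3T3 control replicates 2 and 3 or NIH-3T3 SHHN replicate 1, and was otherwise at 0.0582 to 0.0815. The difference of Lox (-1.07, adjusted p = 0.0316) ended without MLg control replicates 1 and 2, any MLg SHHN replicate or NIH-3T3 control replicates 1 and 3, each left out alone, at 0.0564 to 0.0773, and with the replicate block (0.0619). The difference of Igfbp6 (-0.90, adjusted p = 0.0316) ended without MLg control replicates 1 and 3, any MLg SHHN replicate or NIH-3T3 SHHN replicates 1 and 2, each left out alone, at 0.0591 to 0.0709. The difference of Mfap3l (0.90, adjusted p = 0.0249) ended without MLg control replicate 1, MLg SHHN replicates 1 and 2 or NIH-3T3 SHHN replicate 1, each left out alone, at 0.0537 to 0.0665, with a pseudocount of 0.1 (0.121) and under quantile normalization (0.0656). The difference of Steap4 (-2.33, adjusted p = 0.0216) ended without MLg control replicate 2, MLg SHHN replicate 3 or NIH-3T3 control replicate 3, at 0.0539 to 0.0603, and was -1.68 without NIH-3T3 SHHN replicate 1. With a pseudocount of 0.1 the adjusted p of Steap4 was 0.211. With no filter on low values the differences of Rasl11b (0.0643), Igfbp6 (0.0567), Lox (0.0624), Mxd3 (0.0759) and Steap4 (0.0526) did not pass, and that of Mxd3 did not with a pseudocount of 1 (0.0546).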

How the results depend on the processing

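Requiring a 2-fold change by the test left 371 higher and 89 lower genes in the mean over both lines, 373 and 156 in NIH-3T3, 329 and 61 in MLg, and 24 shared genes that differed between lines. This follows from the stricter test. No result reversed. With 1 library left out, the averaged effect called 1986 to 2383 higher and 1790 to 2308 lower genes, and 1377 to 1467 higher and 1035 to 1178 lower genes had no overlap. Counts in NIH-3T3 were 1614 to 2143 and 1358 to 2096, and in MLg 1158 to 1809 and 811 to 1452, the count of 811 without MLg SHHN replicate 3. Shared genes that differed between the lines numbered 261 to 447 (367 with all libraries). Genes in opposite directions numbered 411 to 668, with 668 without MLg control replicate 3 and 618 without NIH-3T3 control replicate 2, since fewer libraries must be separate.

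Under quantile normalization 44.8% of calls were higher, against 51.8% as deposited, and 48.8% against 57.9% of genes without overlap. Under median-ratio scaling these shares were 48.2% and 53.8%. Lower calls thus outnumbered higher calls under both scalings, the reverse of the balance as deposited. The cause was not tested. With the replicate block 2368 genes were higher and 2166 lower. Among named genes it ended the difference of Lox and no other call. Of 1344 mean changes of named genes with 1 library left out, 1338 kept their call, as did 1002 of 1007 under the other settings. The exceptions were Smo, Eef2, Col1a2 and Thy1. The required 2-fold change was not read for single genes and is not among these settings. Thy1 did not pass without any 1 of 6 libraries (adjusted p 0.0601 to 0.0793), with a pseudocount of 0.1 (0.679) or in the additive model (0.175). Differences between lines kept their call in 524 of 564 and 363 of 376, where the additive model is also left out because it has no such difference. Each group has 3 libraries and unknown depth, so small changes in low genes are the least certain.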

Other observations

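The average also called genes that passed in neither line alone, 214 higher and 247 lower. The smallest adjusted p among named genes of this kind belonged to Golim4, a Golgi protein (mean -0.39 ± 0.10, adjusted p = 0.00684, against 0.0541 in NIH-3T3 and 0.0527 in MLg). Svil, the actin-binding protein supervillin (-0.37 ± 0.10), and Fmn1, an actin-nucleating formin (-0.66 ± 0.17), also passed in the mean only. For Golim4, Svil and Fmn1 the NIH-3T3 libraries overlapped, so these genes stand outside the rule. These genes were chosen after their values were seen.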
